A study of Mus musculus with 14 samples.

Results

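The cytosolic ribosomal protein genes were followed in sorted cortical microglia of mice from sham surgery to 90 days after a stroke. They were taken by symbol, as rows that begin with Rpl or Rps and a digit or that read Rplp0, Rplp1, Rplp2 or Rpsa, without the Rps6k kinases. The rule found 80 of the 14084 genes in the count table. Of these, 44 encode proteins of the large subunit (3 of them the P stalk), 29 encode proteins of the small subunit, 6 are paralogues of ribosomal protein genes (Rpl3l, Rpl7l1, Rpl22l1, Rpl36al, Rpl39l and Rps27l) and 1, Rps19bp1, encodes a protein that binds a ribosomal protein. Fau, whose product carries a ribosomal protein fused to a ubiquitin-like domain, falls outside the symbol rule and is given apart. Rps23, Rps27, Rpl3 and Rpl30 were not analysed here. All 80 passed the filter on low counts.

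The series holds 14 libraries of total RNA from microglia sorted out of the cerebral cortex of C57BL/6 mice aged 8 to 10 weeks, with no engineered allele named. The 6 stroke groups, at days 1, 3, 7, 21, 60 and 90, had the distal middle cerebral artery tied off for good and both common carotid arteries closed for 7 min. The sham group had a lesion of the skull surface and no vessel closure. Each group has 1 library numbered replicate 1 (M1) and 1 numbered replicate 2 (M2). The sources used here do not say what the number stands for, whether libraries came from separate or pooled animals, which sort markers were used or when sham animals were sampled, so p-values measure only the spread between these libraries, which may be technical. In bulk RNA, a change in the number of cells of a type and a change in RNA per cell cannot be told apart.

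A ribosome is built from a small subunit, which reads the mRNA, and a large subunit, which joins amino acids. Each protein is normally present once per subunit, apart from the acidic proteins of the stalk, so the genes are made in parallel in most cells. Their mRNAs start with a run of pyrimidines, the 5′ terminal oligopyrimidine (TOP) tract, through which mTORC1 and LARP1 set how many of these mRNAs are translated. The family has also left many processed pseudogenes in mammalian genomes, intronless copies that can be nearly identical to the parent mRNA. Microglia, the resident macrophages of the brain, are known to enlarge and divide after ischemia.

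Start windows of these genes are shown because the TOP tract is the sequence feature the family is known for. In RefSeq start windows of GRCm38.p6, 62 of the 80 genes were matched. A run of 8 or more C or T on the gene's strand, within 15 bases before to 15 after the annotated start, was present in 26 of the 62 (41.9%), against 3760 of 27025 genes of all kinds (13.9%). Windows from 8 members whose levels are described further on follow, with the longest run in capitals.

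Rpl4 (chr9:64173372-64173401, plus strand): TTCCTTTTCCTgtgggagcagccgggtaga
Rpl34 (chr3:130730323-130730352, minus strand): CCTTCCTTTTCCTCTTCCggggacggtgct
Rpl35a (chr16:33056467-33056496, plus strand): gcggggcttgCCTTCCTCTTTCCgccatct
Rpl38 (chr11:114668565-114668594, plus strand): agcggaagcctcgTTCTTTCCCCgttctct
Rplp2 (chr7:141447636-141447665, plus strand): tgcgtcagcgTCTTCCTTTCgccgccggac
Rps6 (chr4:86857353-86857382, minus strand): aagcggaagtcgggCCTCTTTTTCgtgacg
Rps9 (chr7:3704026-3704055, plus strand): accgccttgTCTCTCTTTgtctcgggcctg
Rps15a (chr7:118116133-118116162, minus strand): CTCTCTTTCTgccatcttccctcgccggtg

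The runs in Rpl4, Rpl34 and Rps15a open the window, and those in Rpl35a, Rpl38, Rplp2, Rps6 and Rps9 lie inside it. A run is a description of these letters, not a tested TOP tract.

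Copies are shown because they decide which reads can be given to a gene. Transcripts of GENCODE M21 (GRCm38) were split into words of 50 bases, and a median of 46.1% of a member's words occurred in a transcript of another gene, against 0 for the other genes of the table. A share of 50% or more was found in 37 of the 80 members (46.2%) and in 564 of all genes (4.01%). A word was shared with 1 pseudogene or more in 76 members, with a median of 8 pseudogenes per member and up to 121 for Rpl7a, a protein of the large subunit. The 4 members with the largest difference between the replicate numbers are each set above a processed pseudogene, 60 coding bases each, with bases that differ in capitals.

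Rpl34: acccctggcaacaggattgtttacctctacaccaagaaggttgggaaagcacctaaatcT
Rpl34-ps1: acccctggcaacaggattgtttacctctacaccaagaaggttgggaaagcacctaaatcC
Rpl23a: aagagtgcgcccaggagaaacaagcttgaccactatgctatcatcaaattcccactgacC
Gm10132: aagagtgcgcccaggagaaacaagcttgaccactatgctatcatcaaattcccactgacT
Rpl35a: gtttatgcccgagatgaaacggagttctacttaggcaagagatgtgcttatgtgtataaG
Gm10243: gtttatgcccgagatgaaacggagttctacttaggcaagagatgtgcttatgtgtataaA
Rpl5: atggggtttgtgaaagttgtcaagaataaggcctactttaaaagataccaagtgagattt
Gm15500: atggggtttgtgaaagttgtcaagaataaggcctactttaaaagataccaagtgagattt

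Over the aligned coding bases, Rpl34 differed from Rpl34-ps1 at 2 of 351, Rpl23a from Gm10132 at 1 of 468 and Rpl35a from Gm10243 at 1 of 330. The 891 coding bases of Rpl5 were all found in Gm15500. How the submitters treated reads that fit several places is not given in the sources used here, so the levels of such members are uncertain.

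The libraries differed in depth, with 15254983 to 28758420 counts in replicate 1 and 100625099 to 191692779 in replicate 2, 6.6 to 9.19 times as many within a group. A total of 3 counts equals 0.104 to 0.197 CPM (counts scaled to a library total of 1000000) in replicate 1 and 0.0157 to 0.0298 CPM in replicate 2. The sham libraries also differed from the stroke libraries in cell type markers: the 16 microglia markers summed to 1566 and 2724 CPM in sham and to 3573 to 42485 CPM after stroke, 14 of 15 listed neutrophil markers to 22365 and 33386 CPM in sham and 378 to 7982 CPM after stroke, and 14 monocyte markers to 11839 and 16962 CPM in sham and 1293 to 12461 CPM after stroke. The 4 of 11 listed erythroid markers in the table summed to 200 and 207 CPM in sham and to 0 to 4.43 CPM after stroke. For 10 endothelial markers the sums were 27.7 to 86.0 CPM in replicate 1, against 114 to 1505 CPM in replicate 2. None of these markers was at 0 in all libraries of sham, of stroke or of a replicate number, and the part these markers play in the results on ribosomal protein genes was not tested.

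The 80 genes were unevenly represented. Levels are CPM on library totals scaled by TMM, edgeR's factor for library composition, and between genes they are compared per kilobase of the main annotated transcript. Rps9, near the decoding site of the small subunit, stood highest at 308 CPM per kilobase as a mean over the 14 libraries, and Rpl4 stood at 283, Rpl8 at 195 and Rps3 at 183. At the other end, Rpl11, a member of the 5S RNA particle that also binds Mdm2, stood at 1.10 CPM per kilobase, Rpl28 at 0.51, the muscle paralogue Rpl3l at 0.46 and the testis paralogue Rpl39l at 0.25. Of the 80, 40 were under 10 CPM per kilobase. By CPM alone, Rpl4, Rps3, Rps9, Rplp0 and Rpl8 were the 5 highest members, with means of 435, 349, 281, 240 and 199, and the 5 highest members of a library held 36.1% to 50.8% of its ribosomal protein counts.

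Sequence shared with other genes went with level only loosely. Members with 50% or more of their words in another gene had a median of 7.36 CPM per kilobase (37 genes), those with 10% to under 50% had 12.8 (33 genes) and those under 10% had 14.7 (10 genes). Across the 80 members, the share of copied words and log2 CPM per kilobase had a Pearson r of -0.22 and a Spearman rho of -0.27, points that share the same libraries and are not independent. Rps12, with 83.6% of its words in another gene, stood at 1.24 CPM per kilobase, while Rpl13a, with 57.4%, stood at 161. Both measures depend on the length of the annotated transcript, such as 5179 bases for Rps15a in the class under 10%.

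Summed over all 80 genes, the share of library counts differed between replicate numbers in a way that depended on time. In replicate 1, in the order sham and days 1, 3, 7, 21, 60 and 90, the genes took 0.210%, 0.462%, 0.613%, 0.209%, 0.252%, 0.268% and 0.207% of counts. In replicate 2, in the same order, they took 0.421%, 0.312%, 0.344%, 0.269%, 0.334%, 0.476% and 0.326%. Days 1 and 3 were thus above sham in replicate 1 and below it in replicate 2, and 7 of the 12 stroke values lay between the 2 sham values. As mean ± SD (n = 2), sham was at 0.316% ± 0.150, day 3 at 0.479% ± 0.190, day 7 at 0.239% ± 0.0423 and day 90 at 0.267% ± 0.0843. Each of these 3 times differed from sham by less than the larger SD of the pair. These SDs include the difference between the replicate numbers. Within each number, days 7 and 90 were below sham, in replicate 1 only slightly (0.209% and 0.207% against 0.210%).

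**Figure D1:**
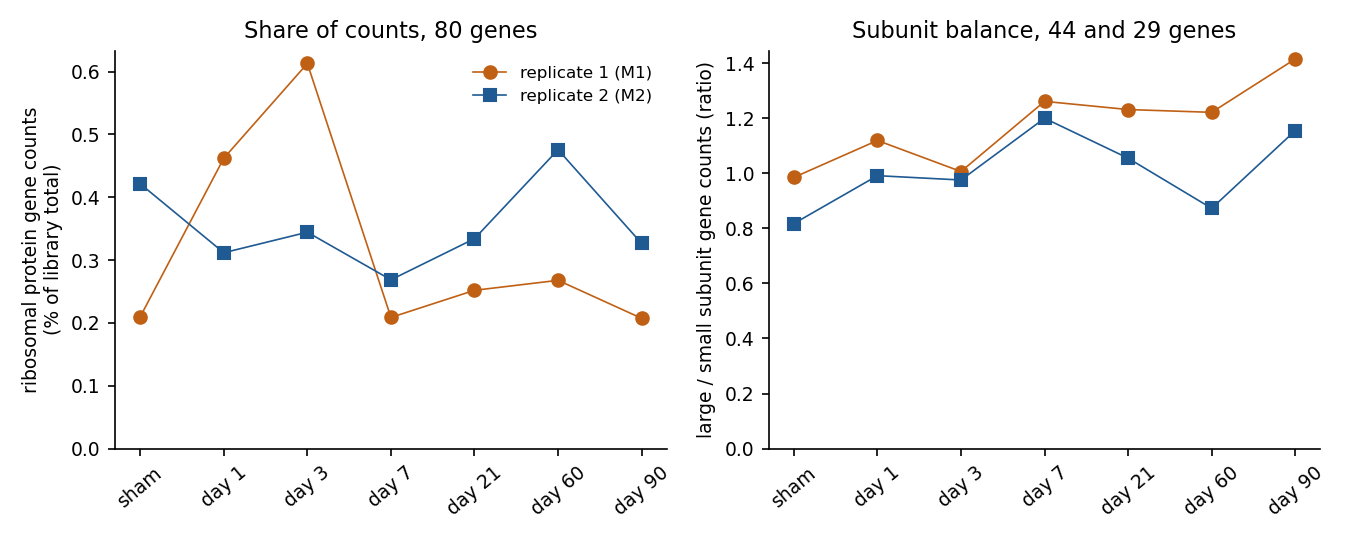
Left, counts of the 80 ribosomal protein genes as a percent of all counts of a library (y axis), and right, counts of 44 large-subunit genes divided by those of 29 small-subunit genes (y axis), for sham and 6 times (x axis), with 1 point per library, circles for replicate 1 and squares for replicate 2. In the left panel replicate 1 peaks at day 3 with 0.613%, where replicate 2 stands at 0.344%, below its sham value of 0.421%.

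The balance of the subunits was followed as the ratio of large-subunit to small-subunit counts. From sham to day 90 it was 0.985, 1.12, 1.01, 1.26, 1.23, 1.22 and 1.41 in replicate 1. In replicate 2 it was 0.817, 0.991, 0.975, 1.2, 1.05, 0.872 and 1.15. Both libraries of days 1, 7, 21 and 90 lay above both sham libraries, while 1 library of day 3 and 1 of day 60 lay between them. In all 7 groups replicate 1 had the higher ratio. Among 37 members with under 50% of their words in another gene, the ratio was 0.779 ± 0.138 in sham and 1.24 ± 0.159 at day 90 (mean ± SD, n = 2), against 0.901 ± 0.119 and 1.28 ± 0.184 with all 73. The 37 still hold Rpl34, whose coding bases nearly match those of the pseudogene shown above. The ratio of the subunits was not tested.

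Most members stood on the same side of their own 14-library median in many of the libraries. From sham to day 90, 24, 55, 65, 7, 4, 31 and 4 of 80 members were above it in replicate 1, and 71, 48, 41, 58, 49, 76 and 27 in replicate 2. Day 3 was thus the highest time of replicate 1 and among the lowest of replicate 2. Over all genes tested, 44.8% to 54.3% were above their own median in a library. The library of highest level was replicate 1 of day 3 for 30 members, replicate 2 of sham for 24 and replicate 2 of day 60 for 18, and replicate 1 of day 90 was the lowest for 31.

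**Figure D2:**
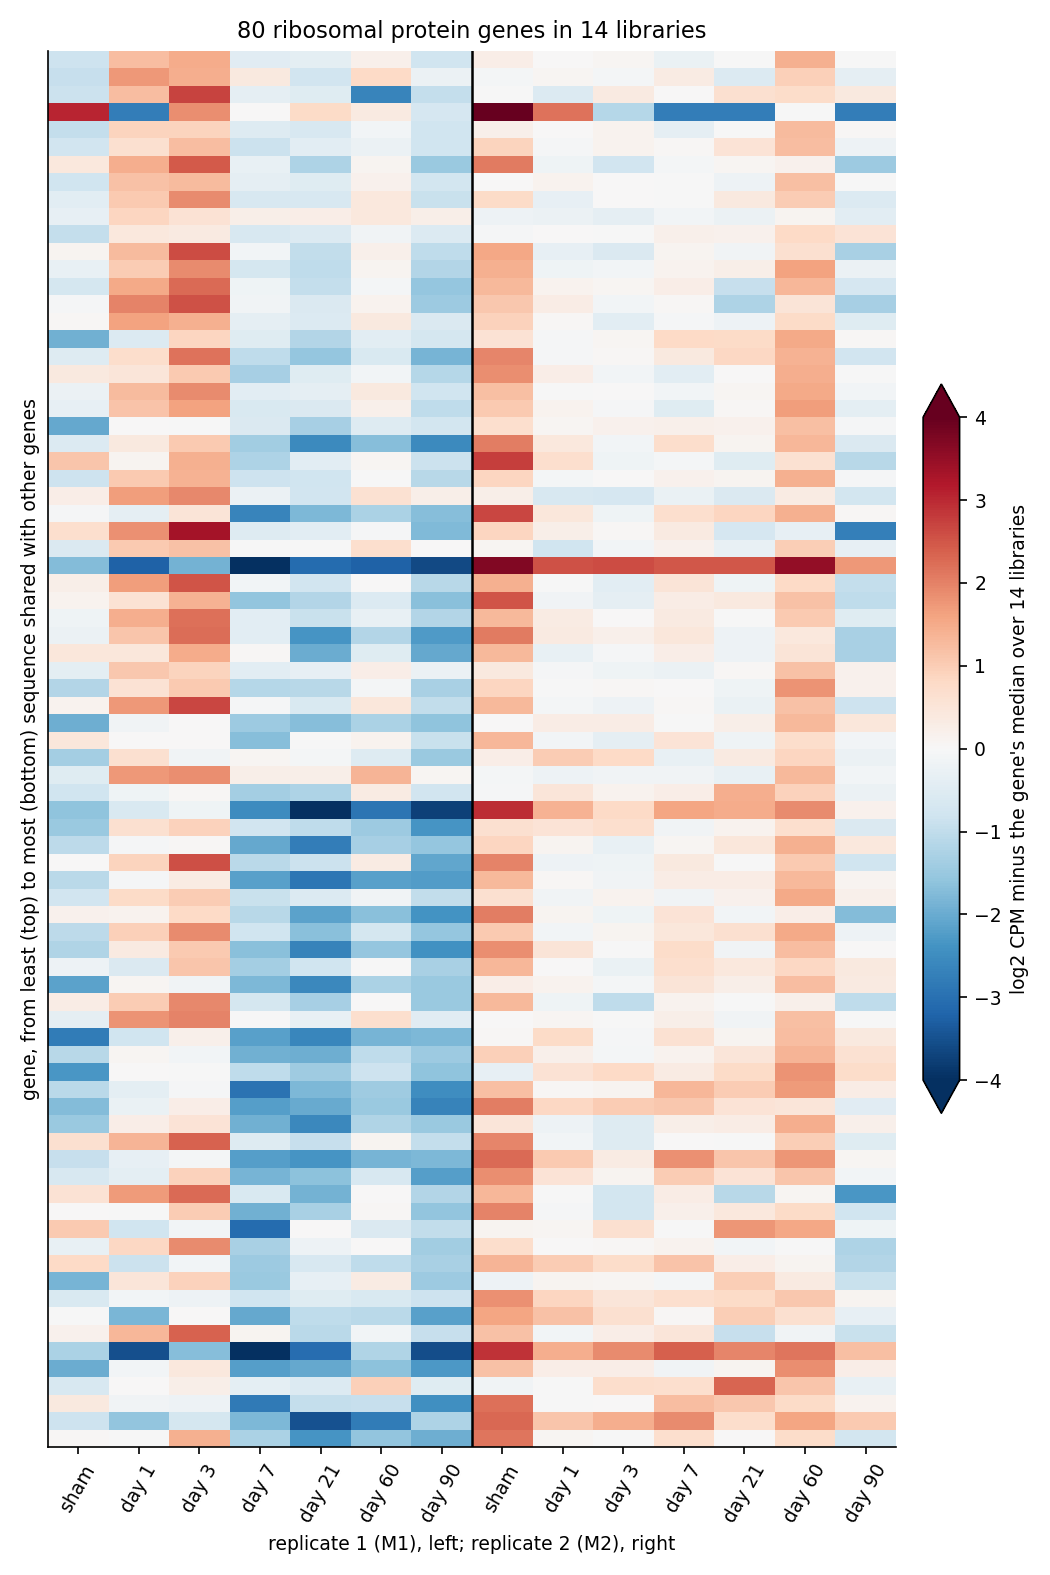
Each row is 1 of the 80 genes and each column 1 of the 14 libraries, with replicate 1 at the left of the black line and replicate 2 at the right; colour gives log2 CPM minus the gene's own median, and rows run from least to most sequence shared with other genes. Columns of days 1 and 3 of replicate 1 and of sham and day 60 of replicate 2 are mostly red, and several rows in the lower part of the picture are blue through replicate 1.

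Against sham, no member passed the test at any of the 6 times in the fit with group alone. edgeR's quasi-likelihood test with Benjamini-Hochberg adjustment over 13861 genes called 0 of 80 at days 1, 3, 7, 21, 60 and 90, where it called 4.55%, 8.28%, 12.6%, 6.44%, 7.85% and 7.86% of all genes. At an unadjusted p under 0.05 it had 1, 1, 2, 7, 1 and 20 members, against 21.8%, 26.2%, 29%, 24.8%, 26.9% and 26.2% of all genes. DESeq2 called 0, 0, 2, 1, 0 and 16 members, against 13.5%, 19.2%, 22.8%, 17.7%, 19.1% and 18.9% of all genes, and limma-voom 0, 0, 2, 2, 0 and 3, against 4.34%, 10%, 13.8%, 13.2%, 8.95% and 10.4%. With the replicate number as a block in the same fit, edgeR called 0, 1, 2, 0, 1 and 3 members, against 8.62%, 14.4%, 20%, 11.4%, 14.1% and 14.5% of all genes. These were Rps2, higher at days 3 and 60, and Rpl10 with Rps9 at day 7 and with Rpl37 and Rps7 at day 90, lower. At day 90, all 20 members with an unadjusted p under 0.05 were lower than in sham, 25% of the 80, where 11.1% of all genes were lower at that p, and at day 21, 6 of the 7 were lower, where 9.5% of all genes were. The 20 at day 90 became 1 without replicate 2 of sham, 5 without replicate 1 of day 90 and 6 without replicate 2 of day 90, and 5 with the summed ribosomal protein counts as library size. The median log2 fold change of the members was 0.02, 0.39, -0.72, -0.92, 0.03 and -1.19 at the 6 times, against 0.04, 0.15, 0.06, 0.06, 0.14 and 0.11 over all genes tested. All 6 comparisons use the same 2 sham libraries.

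The direction of these medians depended on which sham library was used. Without replicate 2 of sham, the medians at the 6 times were 1.02, 1.5, 0.42, 0.33, 1.30 and 0.19, and without replicate 1 of sham they were -0.55, -0.17, -1.22, -1.35, -0.61 and -1.83. Those of days 1, 3 and 60 also turned, to -0.43, -0.43 and -0.96, without replicate 1 of day 1, replicate 1 of day 3 and replicate 2 of day 60. Leaving out a sham library sets libraries of both numbers against the sham library of a single number. Under the 5 other scalings the medians of days 7, 21 and 90 stayed below 0. That of day 1 turned to -0.03 with RLE factors (DESeq2's scaling) and to -0.20 with the summed ribosomal protein counts as library size, and that of day 3 turned to -0.10 with the latter. That of day 60 turned to -0.04, -0.55 and -0.25 with RLE factors, the summed counts and library totals alone. With limma-voom the 3 were -0.23, -0.10 and -0.12.

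Within a replicate number, each stroke library can be set against the sham library of the same number. In replicate 1 the median member stood above sham by 1.26 at day 1 and by 1.81 at day 3 on the log2 scale, with 64 and 73 of 80 members higher. In replicate 2 it stood at -0.98 and -1.03, with 11 members higher at each time. The medians of days 7, 21 and 90 were -0.40, -0.70 and -0.90 in replicate 1 and -0.80, -1.04 and -1.43 in replicate 2. Day 60 was near sham in both, at 0.14 and -0.06. So the replicate numbers went opposite ways at days 1 and 3 and the same way at days 7, 21 and 90, with 62 members in replicate 1 and 74 in replicate 2 lower than sham at day 90. Over all genes, the medians of these 12 differences lay between -0.07 and 0.19.

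**Figure D3:**
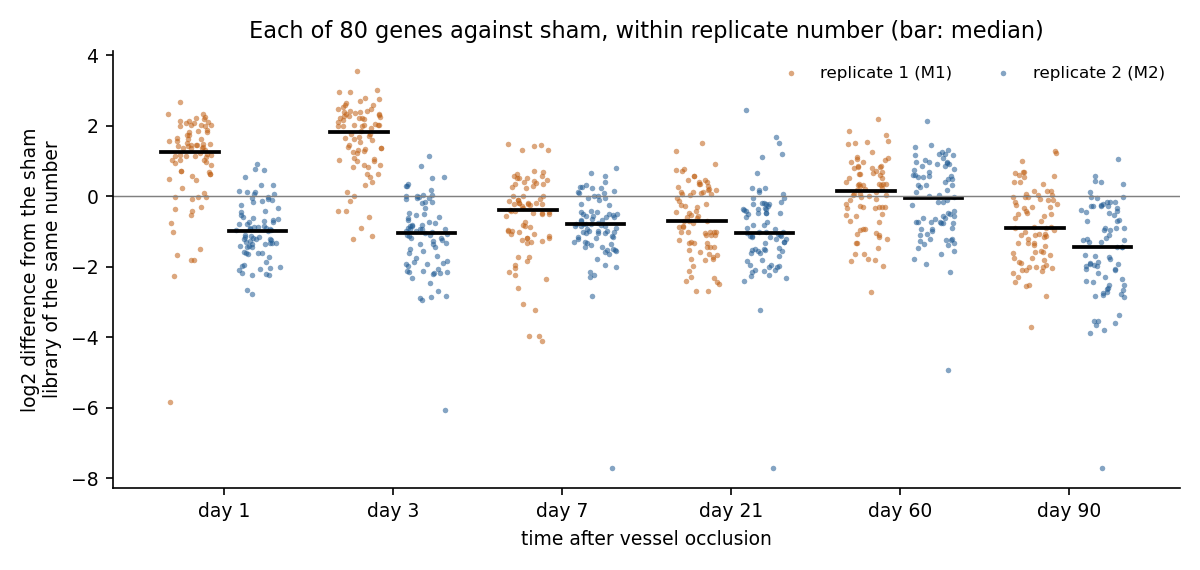
For each of 6 times (x axis), each point is 1 of 80 genes, placed by its log2 difference from the sham library of the same replicate number (y axis), in orange for replicate 1 and blue for replicate 2; black bars are medians. At day 3 the bars stand at 1.81 and -1.03, and at day 90 both are below 0, at -0.90 and -1.43.

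Separation from sham in both libraries was more frequent below than above at days 7, 21 and 90. Both libraries of a time lay above both sham libraries for 8, 9, 2, 0, 10 and 0 members at the 6 times in order. Over all genes tested these shares were 22.2%, 28.9%, 32.1%, 27.5%, 33.9% and 36.4%, so every one of the 6 counts of members, at most 12.5%, was under the background. Both libraries lay below both sham libraries for 8, 4, 15, 22, 8 and 32 members. These are 10%, 5%, 18.8%, 27.5%, 10% and 40% of the 80, against 23%, 24.5%, 27.6%, 24.1%, 26.9% and 27.2% of all genes. The share of members was thus under that of all genes at days 1, 3, 7 and 60, near it at day 21 and above it at day 90. The 32 at day 90 hold 14 small-subunit genes, 15 large-subunit genes and 3 paralogues. At days 7, 21 and 90 alike, 12 members were below both sham libraries, among them Rpl22l1, Rpl37, Rpl39, Rpl3l, Rpl41, Rps15a, Rps25, Rps29 and Rps9. These are 15% of the 80, against 16.6% of all genes, and the 3 times share their sham libraries.

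The following members had the lowest p-values at day 90 and were chosen after their values were seen. Rps7, a small-subunit protein that also binds Mdm2, stood at 8.49 CPM in sham, 8.28, 13.1, 3.54, 1.70 and 2.37 at days 1 to 60 and 1.43 at day 90 in replicate 1. In replicate 2 it stood at 31.7 in sham, 8.12, 6.80, 11.1, 7.08 and 9.11 at days 1 to 60 and 2.26 at day 90. Day 90 was the lowest time in each replicate number, below both sham libraries. Its log2 fold change at day 90 was -3.44 (SE 0.97) and its edgeR adjusted p was 0.0507, with 0.0236 under the replicate block, 0.00119 by DESeq2 and 0.0349 by limma-voom.

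Rpl37, a zinc-finger protein of the large subunit, stood at 2.3 CPM in sham, 1.13, 2.89, 0.436, 0.785 and 1.11 at days 1 to 60 and 0.578 at day 90 in replicate 1. In replicate 2 it stood at 7.32 in sham, 1.69, 0.929, 1.01, 0.755 and 1.63 at days 1 to 60 and 0.476 at day 90. Both libraries of 5 times were below both sham libraries, with day 3 the exception. Its log2 fold change was -2.72 (SE 0.94) at day 7, -2.65 (SE 0.94) at day 21 and -3.20 (SE 0.96) at day 90, with edgeR adjusted p-values of 0.0789, 0.111 and 0.0622. DESeq2 called it at these 3 times, with adjusted p-values of 0.0093, 0.0154 and 0.00183, and edgeR with the replicate block at day 90 (adjusted p 0.0471).

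Rpl38, a small protein of the large subunit tied to the translation of Hox mRNAs, stood at 7.15 CPM in sham, 18.4, 39.8, 6.25, 1.61 and 3.71 at days 1 to 60 and 1.73 at day 90 in replicate 1, and at 35.6 in sham, 10.8, 9.60, 11.5, 7.38 and 11.4 at days 1 to 60 and 3.40 at day 90 in replicate 2. It shows the opposed early pattern: days 1 and 3 were high in replicate 1 and low in replicate 2. Its day 90 change was -3.05 on the log2 scale (SE 1.01, edgeR adjusted p 0.0841). Rps15a, a small-subunit protein, changed by -2.96 (SE 0.98, edgeR adjusted p 0.0841) from 6.24 and 19.5 CPM in sham to 1.65 and 1.66 CPM at day 90. Rps9, the highest member per kilobase, stood at 280 and 778 CPM in sham and at 85.1 and 158 CPM at day 7, a log2 fold change of -2.12 (SE 0.70, edgeR adjusted p 0.0681, and 0.0411 under the replicate block).

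Higher members were fewer at days 7, 21 and 90. At each of days 1, 3 and 60, 1 member was higher and 0 were lower at an unadjusted p under 0.05. Rpl14, a large-subunit protein, stood at 30.5 and 40.3 CPM in sham and at 110 and 106 CPM at day 60, a log2 fold change of 1.61 (SE 0.68, edgeR adjusted p 0.155). Rpl29, another large-subunit protein, stood at 138 and 35.1 CPM at day 3 against 27.3 and 35.3 CPM in sham, where the second day 3 library did not exceed the second sham library (log2 fold change 1.46, SE 0.65, edgeR adjusted p 0.174). Rpl10a stood at 1.83 and 13.3 CPM at day 21, so its log2 fold change of 1.87 (edgeR adjusted p 0.187) rested on replicate 2, without which it was -0.18.

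**Figure D4:**
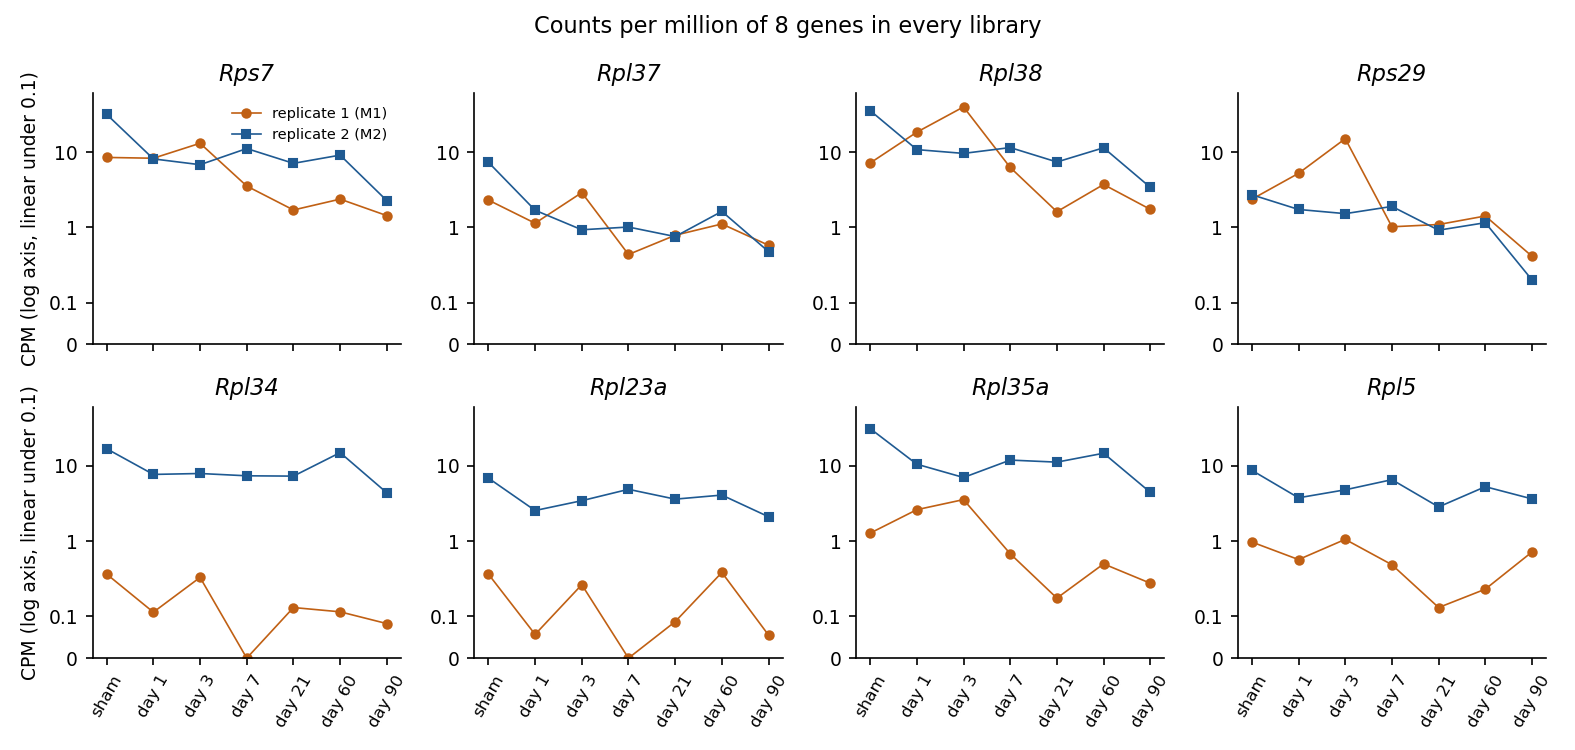
CPM (y axis, log scale, linear under 0.1) of 8 genes in sham and at 6 times (x axis), 1 point per library, circles for replicate 1 and squares for replicate 2. In the upper row Rps7, Rpl37, Rpl38 and Rps29 end at their lowest or near their lowest values at day 90, and in the lower row Rpl34, Rpl23a, Rpl35a and Rpl5 of replicate 2 lie above replicate 1 in all 7 groups.

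The P stalk recruits the factors that drive elongation. Its core protein Rplp0 stood at 152, 420, 370, 151, 161, 241 and 170 CPM in replicate 1 from sham to day 90 and at 265, 195, 178, 169, 207, 451 and 224 CPM in replicate 2. Rplp1 ranged from 8.46 CPM at day 21 to 101 CPM at day 3 in replicate 1 and from 23.5 CPM at day 90 to 77.5 CPM at day 60 in replicate 2, and Rplp2 from 1.35 to 16.5 CPM and from 5.35 to 33.4 CPM. All 3 were highest or next to highest at days 1 and 3 of replicate 1, and 0 of 3 passed edgeR's test at any time against sham, also at an unadjusted p under 0.05.

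In the small subunit, 0 of 29 members passed the edgeR test against sham at any time in the fit with group alone. At day 90, 11 had an unadjusted p under 0.05, all lower, 37.9% of the 29 where 11.1% of all genes were lower. Rps6, the substrate of S6 kinase, stood at 5.87 to 9.59 CPM in replicate 1 and at 11.4 to 37.4 CPM in replicate 2, with sham the highest of replicate 2. Rps3, at the mRNA entry channel, stood at 163 to 587 CPM and 245 to 759 CPM. Rps19, which is mutated in Diamond-Blackfan anemia, stood at 27.3 to 141 CPM and 60.4 to 234 CPM. Rps25, needed for many viral internal entry sites, stood at 10.0 to 98.7 CPM and 13.5 to 74.3 CPM, and Rps28 at 0.496 to 13.2 CPM and 1.25 to 8.60 CPM. In Rps3, Rps19, Rps25 and Rps28, day 3 was the top library of replicate 1 while sham or day 60 was that of replicate 2. The X-linked Rps4x stood at 5.32 to 46.4 CPM and 22.2 to 86.9 CPM, and Rpsa, the laminin receptor homologue, at 19.0 to 75.6 CPM and 74.4 to 184 CPM. Rps27a, made as a fusion with ubiquitin, stood at 0.523 to 4.14 CPM and 2.52 to 14.5 CPM.

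In the large subunit, 0 of 44 passed the edgeR test against sham in the fit with group alone. At day 90, 6 had an unadjusted p under 0.05, all lower, 13.6% of the 44 and so near the 11.1% of all genes. Rpl10, added in the last step of subunit maturation, stood at 1.82 to 8.29 CPM in replicate 1 and at 6.55 to 24.7 CPM in replicate 2. Rpl11 stood at 0.291 to 1.71 CPM and 0.644 to 2.01 CPM, from 6 to 26 counts in replicate 1 and from 111 to 204 in replicate 2. Rpl13a, a part of the interferon-gamma response that silences inflammatory mRNAs, stood at 71.9 to 286 CPM and 130 to 405 CPM. Rpl22 stood at 12.4 to 53.9 CPM and 19.8 to 53.1 CPM, Rpl39 at 1.71 to 21.2 CPM and 1.40 to 10.1 CPM, and Rpl41, the shortest of these proteins, at 18.1 to 228 CPM and 20.3 to 87.1 CPM. In Rpl13a, Rpl22, Rpl39 and Rpl41 the highest library of replicate 1 was day 3, and in Rpl39 and Rpl41 of replicate 2 it was sham.

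The paralogues did not follow 1 pattern. Rpl3l, the striated muscle form of Rpl3, stood at 1.39 and 5.19 CPM in sham (23 and 437 counts) and at 0 to 0.740 CPM in the 12 stroke libraries, with 0 counts in replicate 1 of day 1 and in replicate 2 of days 7, 21 and 90. It was the 1 member below both sham libraries at all 6 times, where 10.9% of all genes were, edgeR did not call it (adjusted p 0.171 at day 90), and its fitted fold change depends on the handling of zeros. Rpl7l1, related to Rpl7, was higher in replicate 1 in 6 of 7 groups and ranged only from 62.8 to 152 CPM. Rpl36al, an intronless copy of Rpl36a that is itself expressed, stood at 145 and 217 CPM at days 1 and 3 of replicate 1 and at 13.5 CPM at day 90, against 44.8, 34.1 and 14.7 CPM in replicate 2. Rps27l, a p53 target related to Rps27, stood at 17.4 to 246 CPM and 27.1 to 129 CPM, Rpl22l1 at 1.87 to 19.8 CPM and 2.55 to 12.8 CPM, and Rpl39l at 0 to 0.987 CPM and 0.083 to 0.234 CPM. Rps19bp1 stood at 34.0 and 27.5 CPM at days 1 and 3 of replicate 1 against 5.27 CPM in sham, and at 10.6 and 9.68 CPM in replicate 2 against 9.59 CPM (day 1 log2 fold change 1.58, SE 0.63, edgeR adjusted p 0.17).

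Between stroke times, in comparisons that give sham no weight, 1 member was called. The sham libraries still entered the fit through the filter, the scaling and the shared spread. Rps29, a zinc-binding protein of the small-subunit head, stood at 5.22 and 15.1 CPM at days 1 and 3 of replicate 1 and at 1.42 and 0.413 CPM at days 60 and 90. In replicate 2 it stood at 1.73 and 1.52 CPM at days 1 and 3 and at 1.15 and 0.20 CPM at days 60 and 90. The 4 late values were below the 4 early values. Its log2 fold change for days 60 and 90 against days 1 and 3 was -3.10 (SE 0.74, edgeR adjusted p 0.0496), in a comparison that called 2.62% of all genes and 0.844% of all genes as lower. DESeq2 called 5 members (8.35% of all genes) and limma-voom 0 (5.45%), and edgeR with the replicate block called Rps29 alone (4.41%). The call was lost with upper-quartile scaling (adjusted p 0.0549), with library totals alone (0.0641), with the summed ribosomal protein counts (0.306), with limma-voom (0.135) and when any of 11 of the 14 libraries was left out; without replicate 1 of day 3 the log2 fold change was -1.88 (adjusted p 0.271). The other 10 of these 11 fits gave log2 fold changes of -3.40 to -2.60, and the 4 other settings -3.03, -3.01, -2.21 and -2.09 in the order given. At an unadjusted p under 0.05, 13 members were lower and 0 higher, where 16.3% of all genes passed and 7.32% were lower, and Rpl36al was next (log2 fold change -2.09, SE 0.55, edgeR adjusted p 0.0712). Sums of 9 B cell markers were 10.1 to 68.8 CPM at days 1 and 3 and 224 to 457 CPM at days 60 and 90, and of 15 T and NK cell markers 36.9 to 47.2 CPM and 192 to 433 CPM; their part in the difference was not tested. In the joint test of the 6 stroke times, edgeR called 0 of 80 members and 0.866% of all genes, with 4 members (Rps29, Rpl36al, Rpl41 and Rps27l) and 12% of all genes at an unadjusted p under 0.05. DESeq2 called 2 members (9.21% of all genes) and limma-voom 0 (1.76%).

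More members were called between the replicate numbers than between any times. That comparison sets 7 libraries against 7, and each time against sham only 2 against 2, so the counts do not compare sizes of effect. In a fit with group and replicate number, edgeR called 19 of 80 members, 23.8%, against 9.42% of all genes, and all 19 were higher in replicate 2, where 4.99% of all genes were. They were 11 large-subunit genes, among them Rpl34, Rpl23a, Rpl35a, Rpl5, Rpl19, Rpl31 and Rpl10, and 8 small-subunit genes, among them Rps27a, Rps2, Rps3a1, Rpsa and Rps6. At an unadjusted p under 0.05, 29 were higher and 1 lower, where 24.1% of all genes passed, 11.6% higher and 12.5% lower. DESeq2 called 30 (19.1% of all genes) and limma-voom 21 (11.9%). With 1 library left out the count lay between 10 and 25, with 10 when replicate 2 of sham or either library of day 7, 60 or 90 was missing, 11 without replicate 1 of sham and 12 and 13 without replicate 2 and 1 of day 21. With the summed ribosomal protein counts as library size it was 10.

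Rpl34, a large-subunit protein, had 6, 2, 5, 0, 3, 3 and 3 counts in replicate 1 from sham to day 90 (0 to 0.364 CPM, where 0 counts at day 7 allow up to 0.162 CPM) and 1416, 1110, 1360, 889, 898, 1854 and 873 counts in replicate 2 (4.37 to 16.8 CPM). The replicate numbers did not overlap. Its log2 fold change was 5.99 (SE 0.49, edgeR adjusted p 3.2e-05), a fitted value that rests on few counts in replicate 1. Rpl23a, which lies at the exit of the peptide tunnel, had 0 to 10 counts in replicate 1 and 368 to 592 in replicate 2, a log2 fold change of 4.79 (SE 0.61, edgeR adjusted p 0.000797). Rpl35a, at 0.174 to 3.55 CPM against 4.44 to 31.2 CPM, changed by 3.77 (SE 0.60, edgeR adjusted p 0.00381), and Rpl5, a partner of Rpl11 in the 5S RNA particle, at 0.131 to 1.05 CPM against 2.84 to 8.70 CPM, by 3.24 (SE 0.42, edgeR adjusted p 0.000825). These 4 are the members whose coding bases were shown above beside their copies. At the lower end of the 19, Rps2, Rpsa and Rps6 changed by 1.70 (SE 0.28), 1.54 (SE 0.30) and 1.35 (SE 0.24), with edgeR adjusted p-values of 0.00473, 0.0106 and 0.00725.

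The members with copies held most of this difference. Of 37 members with 50% or more of their words in another gene, 16 were called (43.2%), of 33 with 10% to under 50%, 3 were, Rpl34 and Rpsa among them (9.09%), and of 10 under 10%, 0 were, with 1 of the 10, Rpl7l1, lower at an unadjusted p under 0.05. The class under 10% holds the paralogues Rpl3l, Rpl7l1 and Rpl39l, and also Rps19bp1. Rps15a and Rps20 are in it too, although they share words with 9 and 4 pseudogenes. Their share is taken over transcripts of 5179 and 3706 bases, so it depends on the transcript chosen. The median of the members' log2 difference, replicate 2 minus replicate 1, was 1.82, 0.77 and 0.35 in these 3 classes. Across the 80 members its correlation with the share of copied words was 0.41 by Pearson and 0.41 by Spearman, over genes that share the same libraries. Higher in replicate 2 in all 7 groups were 13 of the 37 (35.1%), 4 of the 33 and 0 of the 10, together 17 of 80 (21.2%) against 7.31% of all genes, and 0 were lower in all 7, where 7.81% of all genes were. Genes outside the family went the same way: 27.6% of 519 other genes with 50% or more of their words in another gene, and 5.08% of 11199 with under 10%, were higher in replicate 2 in all 7 groups. Depth, the sum of endothelial markers and any difference in read handling go with the replicate number, and these cannot be told apart. Of the 10 endothelial markers, edgeR called 2 higher in replicate 2, Ly6c1 (log2 fold change 6.87) and Slco1a4 (2.40). The median of the 10 was 0.86, with 9 higher in replicate 2. Whether the content of endothelial cells differed was not tested.

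**Figure D5:**
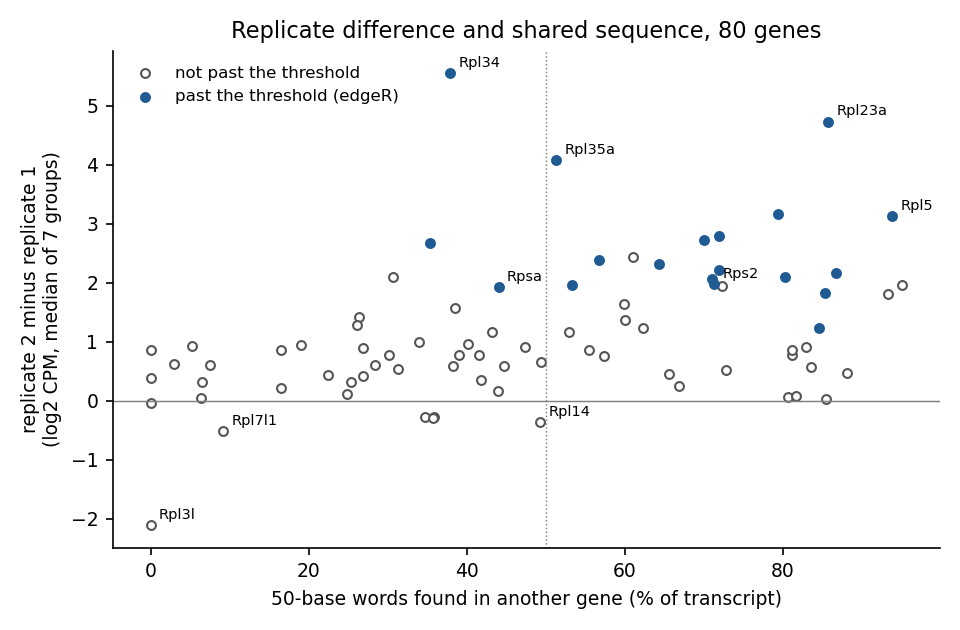
Each point is 1 of 80 genes, placed by the percent of its 50-base words that occur in another gene (x axis) and by its log2 CPM in replicate 2 minus replicate 1, median of 7 groups (y axis); filled points passed edgeR's test. Of the filled points 16 lie at or right of the dotted line at 50% and 3 left of it, with Rpl34 the highest of all.

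The replicate difference was not the same at every time. The median member was higher in replicate 2 by 1.65 in sham and by 1.11, 1.23, 1.44 and 0.82 at days 7, 21, 60 and 90 on the log2 scale, and stood at -0.44 and -1.12 at days 1 and 3. In sham, 78 of 80 members were higher in replicate 2, and at day 3, 20 were. Over all genes the 7 medians lay between -0.03 and 0.01. Classes of copies differed here too: counts of the 10 members under 10% took 0.148% of the total in replicate 1 of day 3 and 0.0861% in replicate 2, whereas those of the 37 with 50% or more took 0.0995% and 0.0749%, and at day 90 the same classes took 0.0597% and 0.0727%, and 0.0291% and 0.0717%.

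Genes of the ribosome outside the symbol rule were read in the same way. Fau stood at 0.551 to 6.71 CPM in replicate 1 and 2.47 to 15.8 CPM in replicate 2 and was called between the replicate numbers (log2 fold change 2.08, SE 0.43, edgeR adjusted p 0.0151). Gnb2l1, the gene of the scaffold RACK1 on the small subunit, stood at 75.7 and 158 CPM in sham and at 358 and 213 CPM at day 1, 396 and 243 CPM at day 3 and 155 and 431 CPM at day 60. Both its libraries of days 1 and 3 were above both sham libraries, with log2 fold changes of 1.29 (SE 0.58) and 1.45 (SE 0.58) and edgeR adjusted p-values of 0.219 and 0.138.

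Genes around the ribosome are given with the share of all genes called at each time, which was 4.55%, 8.28%, 12.6%, 6.44%, 7.85% and 7.86% in order. Of 50 ribosome biogenesis genes, 3, 3, 3, 1, 2 and 2 (6%, 6%, 6%, 2%, 4% and 4%) rose at days 1, 3, 7, 21, 60 and 90 and 0 fell. These shares were under that of all genes at every time but day 1, with list medians of 0.96, 0.75, 0.74, 0.38, 0.63 and 0.42. At an unadjusted p under 0.05, 38%, 30%, 38%, 16%, 26% and 18% of the 50 were higher and 0 lower. Of all genes, 21.8%, 26.2%, 29%, 24.8%, 26.9% and 26.2% passed at that p in either direction, and 12.4% were higher at day 1. With the replicate block edgeR called 9, 8, 16, 4, 10 and 5 of the 50, all higher. Wdr12, of the PeBoW complex that processes large-subunit RNA, rose by 2.31 (SE 0.50, edgeR adjusted p 0.0247) at day 1 and was called at days 1, 3, 7, 60 and 90, and Pno1, which assembles the small subunit, rose by 2.04 (SE 0.52, edgeR adjusted p 0.0484) at day 1 and was also called at day 3. Polr1b, a subunit of RNA polymerase I, rose by 2.0 (SE 0.55, edgeR adjusted p 0.035) at day 7. Of 76 mitochondrial ribosomal protein genes, 2 rose at day 60 (Mrpl45 by 1.95 and Mrpl38 by 1.62) and 1, Mrpl33, fell at days 7, 21 and 90 (by 3.37, 3.33 and 4.14), at most 2.63% called at any time, with list medians of 1.01, 1.03, 0.29, -0.23, 0.95 and 0.02. At day 1, 19 of the 76 (25%) were higher at an unadjusted p under 0.05, where 12.4% of all genes were and 1 of the 80 cytosolic members was. Their summed level rose in replicate 1 as that of the cytosolic genes did, from 1390 CPM in sham to 3667 and 3819 CPM at days 1 and 3. In replicate 2 it stood at 2058 CPM in sham, lower at day 1 (1665 CPM) and slightly higher at day 3 (2115 CPM). The cytosolic genes of replicate 2 were below sham at both times.

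Of 39 translation initiation factors, Eif2s1, the alpha subunit of the initiator tRNA carrier, rose at day 1 (by 1.66, edgeR adjusted p 0.0486) and Eif1, which scans for the start codon, fell at days 7 and 90 (by 2.27 and 2.29), 2.56% of the list at each of these times and below all genes. Of 11 genes listed for elongation and termination, not all of them factors of these steps, Eef1e1 rose at days 1 and 3 (by 2.63 and 2.37). Eef2k, the kinase that inhibits Eef2, fell at day 1 (by 2.42). These calls are 18.2% of the list at day 1 and 9.09% at day 3, and neither gene encodes an elongation or termination factor itself. Of 16 other transcripts known for a TOP tract, 0 were called at any time against sham, with 1, 1, 0, 1, 1 and 1 at an unadjusted p under 0.05, and between the replicate numbers 3 were higher in replicate 2, Naca by 2.01, Eef1g by 1.63 and Tpt1 by 1.47.

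Of 28 genes of mTORC1 and its control of TOP mRNAs, 0 rose and 0 fell at day 1, 0 and 1 at day 3, 2 and 2 at day 7, 1 and 0 at day 21, 1 and 1 at day 60 and 2 and 2 at day 90. These are 0%, 3.57%, 14.3%, 3.57%, 7.14% and 14.3% of the list, below all genes except at days 7 and 90. Sesn2, a leucine sensor that restrains mTORC1, fell at days 3, 7, 60 and 90 (by 2.09, 2.13, 3.13 and 2.75), Eif4ebp1, the brake on cap binding, fell at days 7 and 90 (by 2.65 and 2.26), and Rragd, a GTPase that recruits mTORC1 to the lysosome, rose at days 21, 60 and 90 (by 2.65, 2.46 and 3.53). Sesn1 rose at days 7 and 90 (by 2.74 and 2.62) and Rragb rose at day 7 (by 3.24). Of 13 genes of the p53 response, which free Rpl5 and Rpl11 can set off, 0, 0, 1, 0, 0 and 0 rose and 0, 2, 4, 0, 2 and 1 fell at the 6 times (0%, 15.4%, 38.5%, 0%, 15.4% and 7.69% of the list called), among them Phlda3 (higher by 3.44 at day 7) and Trp53inp1 (lower by 4.05, 3.20 and 3.02 at days 3, 7 and 60). All calls of these lists are edgeR's at an adjusted p under 0.05, and they rest on the same sham libraries.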

How the data were processed

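The authors deposited whole-number counts of reads per gene, unnormalized, in 1 table of the series and 1 file per library, and the values of all 14084 genes were equal in both for each of 14 libraries. Per the submitters' processing notes the tools included Bowtie2 2.3.4.2 and HTSeq 0.6.1, with build mm9. Which annotation was used, whether strand was read and how reads with several alignments were treated is not stated in the sources used here, so copies, overlapping genes and antisense genes cannot be told apart. Groups and replicate numbers came from the sample titles.

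The count table was fitted with edgeR 4.0.16 in R 4.3.3 (TMM factors, filter by group, group means, robust quasi-likelihood test), which kept 13861 genes and removed 223, left 7 residual degrees of freedom and gave a common biological coefficient of variation of 0.639. Calls are at an adjusted p under 0.05 (Benjamini-Hochberg, over all genes tested). A standard error (SE) is the log2 fold change divided by the square root of F. Gene levels are TMM-scaled CPM, list sums are CPM of library totals, and log2 values use a prior count of 2. DESeq2 1.42.0, limma 3.58.1 (voom), other scalings, no filter, a replicate block and leaving out each library were alternatives. The script was tested on simulated data. Libraries of a group differed by far more than counting error (chi-square per degree of freedom of at least 408). Floors cover counting error only.

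Words of 50 bases came from GENCODE M21 transcripts (GRCm38, another build than the submitters'; 14048 of 14084 genes matched, 526 through synonyms), taking the principal annotated transcript of each gene and, for genes outside the family, 1 word in 8. Start windows came from RefSeq for GRCm38.p6. The members and lists were chosen with earlier results of these data known. Named genes are a panel of 29 symbols, the 5 members of highest mean CPM, the 4 called members of largest change in each comparison and direction, the paralogues, Fau, Gnb2l1 and up to 2 called members per list, direction and comparison. All others, such as Rps7, Rpl37 and Rps9 at single times, were chosen after their values were seen. Values for some further genes of these lists are left out here.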

Additional observations from a re-analysis of the deposited data

How the results depend on the processing

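Members called moved as follows. DESeq2 gave 2 at day 7, 1 at day 21, 16 at day 90, 5 late against early, 2 among stroke times and 30 between replicate numbers. limma-voom gave 2, 2 and 3 at days 7, 21 and 90 and 0 late against early. Library totals alone gave 1 at day 7 and 1 at day 90, RLE factors 1 at day 90. Late against early, upper-quartile factors, library totals and the summed ribosomal protein counts as library size gave 0, and the last gave 10 between replicate numbers. With the replicate number as a block (replicate block), 0, 1, 2, 0, 1 and 3 members passed at the 6 times and 1 late against early. The numbers were not taken as pairs in the main fit, because a correlation above 0.1 was not reached in all 21 pairs of groups. Over all genes, deviations of same-numbered libraries from their group mean did so in 20 of 21 (lowest 0.071), 1 short of all. Over the 80 members they did in 21 of 21 (0.503 to 0.879). For 14 of 14 libraries the highest correlation of deviations was with their own number. Libraries of a number thus deviated alike, which the main fit leaves in its spread and the replicate block takes out. The cause of these differences was not tested. Over all genes, calls at the 6 times were 631, 1147, 1751, 892, 1088 and 1089 with edgeR, 1878, 2667, 3158, 2447, 2653 and 2616 with DESeq2, 1195, 2002, 2766, 1584, 1953 and 2006 with the replicate block and 48, 102, 329, 199, 99 and 263 with the summed ribosomal protein counts. limma-voom gave 1830 at day 21, library totals 692 at day 60. With library totals 809 genes were higher and 225 lower at day 3, 789 and 62 at day 21 and 865 and 200 at day 90, against 721 and 426, 693 and 199 and 710 and 379 with TMM.

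Leaving out 1 library in turn gave 0 called at days 1, 3, 7 and 60 and among stroke times, 0 to 1 at day 21, 0 to 2 at day 90, 0 to 2 late against early and 10 to 25 between replicate numbers. The members' median log2 fold change then ranged from -0.55 to 1.02, -0.43 to 1.5, -1.40 to 0.42, -1.75 to 0.33, -0.96 to 1.30 and -1.83 to 0.19 at the 6 times, from -1.11 to -0.25 late against early and from 0.49 to 0.90 between replicate numbers. Over the other alternatives no median moved by more than the within-group SD of 1.14, which is wide. A group left with 1 library was assumed to vary like the others. The change of Rpl10a at day 21 ranged from -0.18 (without replicate 2 of day 21) to 2.72.

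The summed level without the 20 most abundant genes in the total was 0.498%, 0.356%, 0.377%, 0.555% and 0.356% at days 1, 7, 21, 60 and 90. Without members that have 50% or more of their words in another gene, the summed level was 0.192% at day 7. Without those members the subunit ratio was 0.779 in sham and 0.963, 0.888 and 1.16 at days 1, 3 and 7. Replicate 1 left 4 to 12 members under 10 counts in a library, so levels of such members are imprecise there.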
